A study of Mus musculus with 8 samples.

Results

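Mitochondrial ribosomal protein genes are nuclear genes whose products are imported into mitochondria and build the mitoribosome there. They were taken as the protein-coding genes of the deposited tables with a symbol that starts with Mrpl or Mrps and a number, which gave 78 genes of 41457 in all (21949 of them protein-coding). All 78 had enough reads to be tested. By their known place, 51 products belong to the large and 26 to the small subunit, with Mrps30 and Mrps18a counted as large in spite of their symbols. The last one, Mrps36, is named as a subunit but works in the 2-oxoglutarate dehydrogenase complex (log2 fold change of 3 weeks over 1 week -0.20, edgeR adjusted p = 0.321).

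The cells were keratinocytes (KCs), the main cell type of the epidermis, prepared from tail skin of adult wild-type C57BL/6 mice and kept untreated in serum-free medium with low calcium. Poly(A) RNA was sequenced from 4 samples after 1 week and 4 samples after 3 weeks of culture. The series gives 4 independent experiments. By a number that is read below as the KC preparation, 3 preparations were sampled at both times. On that reading, the samples of the 2 times are not all independent of each other, although the reported test is unpaired. The question that the samples address is how RNA levels differ between the earlier and the later culture. The cultures were started from whole tail epidermis and were split when nearly confluent, so a sample is a bulk of KCs and not a single stage. Of the 8 listed markers of basal KCs, summed RPKM (reads scaled to exon length and to sequencing depth) reached 12405 to 14644 at 1 week and 7403 to 8585 at 3 weeks. Krt5 and Krt14 made up most of this sum (means of 6170 and 6941 at 1 week, 2207 and 5283 at 3 weeks). Krt5 and Itga6 were lower (log2 fold changes -1.32 and -0.75), 6 of the 8 were not called, and 4 of the 8 values, among them Cdh1 (0.58), were positive. Markers of fibroblasts (at most 4.65 in sum) and endothelial cells (at most 0.559) stayed low. Those of Merkel cells were low as well, with sums of 0.042 to 0.132 at 1 week and 0.311 to 0.640 at 3 weeks. The Langerhans cell marker Cd207 was listed at 0 in every sample. Leukocyte markers summed to 1.39 to 2.39 at 1 week and 3.50 to 8.76 at 3 weeks. Of these, H2-Ab1 alone was called higher (mean 0.82 and 4.84), while Cd74 was at 0.93 and 0.88. Melanocyte markers summed to 3.54 to 21.4 at 1 week and 1.64 to 5.94 at 3 weeks. Among them, Pmel alone was called, as lower (mean 3.34 and 0.72 RPKM, log2 fold change -2.06, edgeR adjusted p = 0.0266). The part of these cell types in the results below was not tested.

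Mitoribosomes translate the 13 mRNAs of mitochondrial DNA, all of which encode subunits of the respiratory chain or of ATP synthase. The large subunit forms peptide bonds and holds the exit tunnel, the small subunit reads the mRNA. About the same core as in bacteria is kept in both subunits, and many further proteins were added in the mitochondrial lineage. In the epidermis, mitochondria are present in the living layers and are lost when KCs cornify.

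Promoters of these genes are known to carry sites for NRF1, for ETS factors such as GABP, and for YY1. RefSeq start sites were found for 69 of the 78 genes on GRCm38.p6, and windows from 250 bases before to 50 bases after the start were searched on both strands. Missing from the table were Mrpl15, Mrps28, Mrpl54, Mrps35, Mrps34, Mrpl13, Mrpl4, Mrpl38 and Mrpl19. The letters CCGGAAG (ETS) occurred in 26 of 69 windows (37.7%, against 9.93% of 27025 RefSeq windows and 20.5% of the 9749 windows of tested genes). GCGCA, any base, GCGC (NRF1) occurred in 13 (18.8%, against 5.19% and 11.7%), and AAGATGGCG (YY1) in 8 (11.6%, against 1.64% and 3.62%). A window with NRF1 or ETS letters was found for 35 genes, 50.7% of the family against 14% of RefSeq windows and 29.5% of those of tested genes. CACGTG (E-box) was in 7.25% (against 8.09% of RefSeq windows and 11.8% of those of tested genes), GGGCGG (GC box) in 49.3% (against 38.2% and 69.9%), and CCAAT in 39.1% (against 41.1% and 43.1%).

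The following lines give the 100 bases just upstream of the RefSeq start for 7 genes whose RNA was lower at 3 weeks and which hold 1 match to the NRF1 or ETS letters there, 5′ to 3′ on the strand of the gene, with the match in capitals. In Mrps27 the ETS letters and in Mrpl12 the NRF1 letters are read on the opposite strand. The stretches are Mrps27 at chr13:99344686-99344785 on the plus strand, Mrps22 at chr9:98601680-98601779 on the minus strand, Mrpl58 at chr11:115403652-115403751 on the plus strand, Mrpl12 at chr11:120484537-120484636 on the plus strand, Mrps18a at chr17:46110904-46111003 on the plus strand, Mrpl3 at chr9:105053168-105053267 on the plus strand, Mrpl45 at chr11:97315616-97315715 on the plus strand.
Mrps27: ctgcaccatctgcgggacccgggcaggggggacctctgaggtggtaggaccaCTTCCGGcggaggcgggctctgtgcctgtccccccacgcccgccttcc
Mrps22: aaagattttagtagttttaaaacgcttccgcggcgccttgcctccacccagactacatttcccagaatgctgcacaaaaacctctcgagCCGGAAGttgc
Mrpl58: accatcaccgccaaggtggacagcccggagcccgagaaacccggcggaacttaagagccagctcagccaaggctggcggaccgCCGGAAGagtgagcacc
Mrpl12: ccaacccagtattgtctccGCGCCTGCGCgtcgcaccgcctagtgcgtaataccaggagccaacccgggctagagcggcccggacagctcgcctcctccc
Mrps18a: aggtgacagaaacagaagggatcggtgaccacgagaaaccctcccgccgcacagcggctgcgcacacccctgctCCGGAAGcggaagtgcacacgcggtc
Mrpl3: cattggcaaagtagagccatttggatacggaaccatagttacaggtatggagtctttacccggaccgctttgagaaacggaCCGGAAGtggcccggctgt
Mrpl45: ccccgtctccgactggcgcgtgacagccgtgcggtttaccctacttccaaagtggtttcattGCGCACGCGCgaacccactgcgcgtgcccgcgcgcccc
Up to 29 of the 100 bases lie inside the gene as the deposited tables draw it, where its start differs from that of RefSeq. The match lay between 11 bases (Mrps22) and 81 bases (Mrpl12) before the start. A match is a description of letters and not of binding. Of the genes lower at 3 weeks, 3 of 20 windows held the NRF1 and 7 of 20 the ETS letters. Of the genes not called, it was 9 of 48 and 18 of 48.

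RNA of many mitochondrial ribosomal protein genes was lower after 3 weeks of culture. In the edgeR quasi-likelihood test over 12590 genes (Benjamini-Hochberg adjusted p under 0.05), 25 of the 78 genes were lower, 1 was higher (Mrps21) and 52 were not called. Of all tested genes, 17.0% were lower, 15.7% higher and 32.8% changed in either direction, so the share of the family called in any direction (33.3%) lay near the background, whereas 32.1% of the family was lower. The median log2 fold change (3 weeks over 1 week) of the family was -0.38, against 0.03 for all tested genes, and 67 of the 78 values were negative (48.2% of all tested genes). The range was from -1.23 (Mrpl47) to 0.61 (Mrps21). The count of lower genes depended on single samples: it was 53 without 3 weeks replicate 3, 14 without 3 weeks replicate 1, and 16 each without 1 week replicate 2, 1 week replicate 4 or 3 weeks replicate 2, while the median stayed between -0.53 and -0.29. Without 3 weeks replicate 3, 20.8% of all genes were lower.

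**Figure D1:**
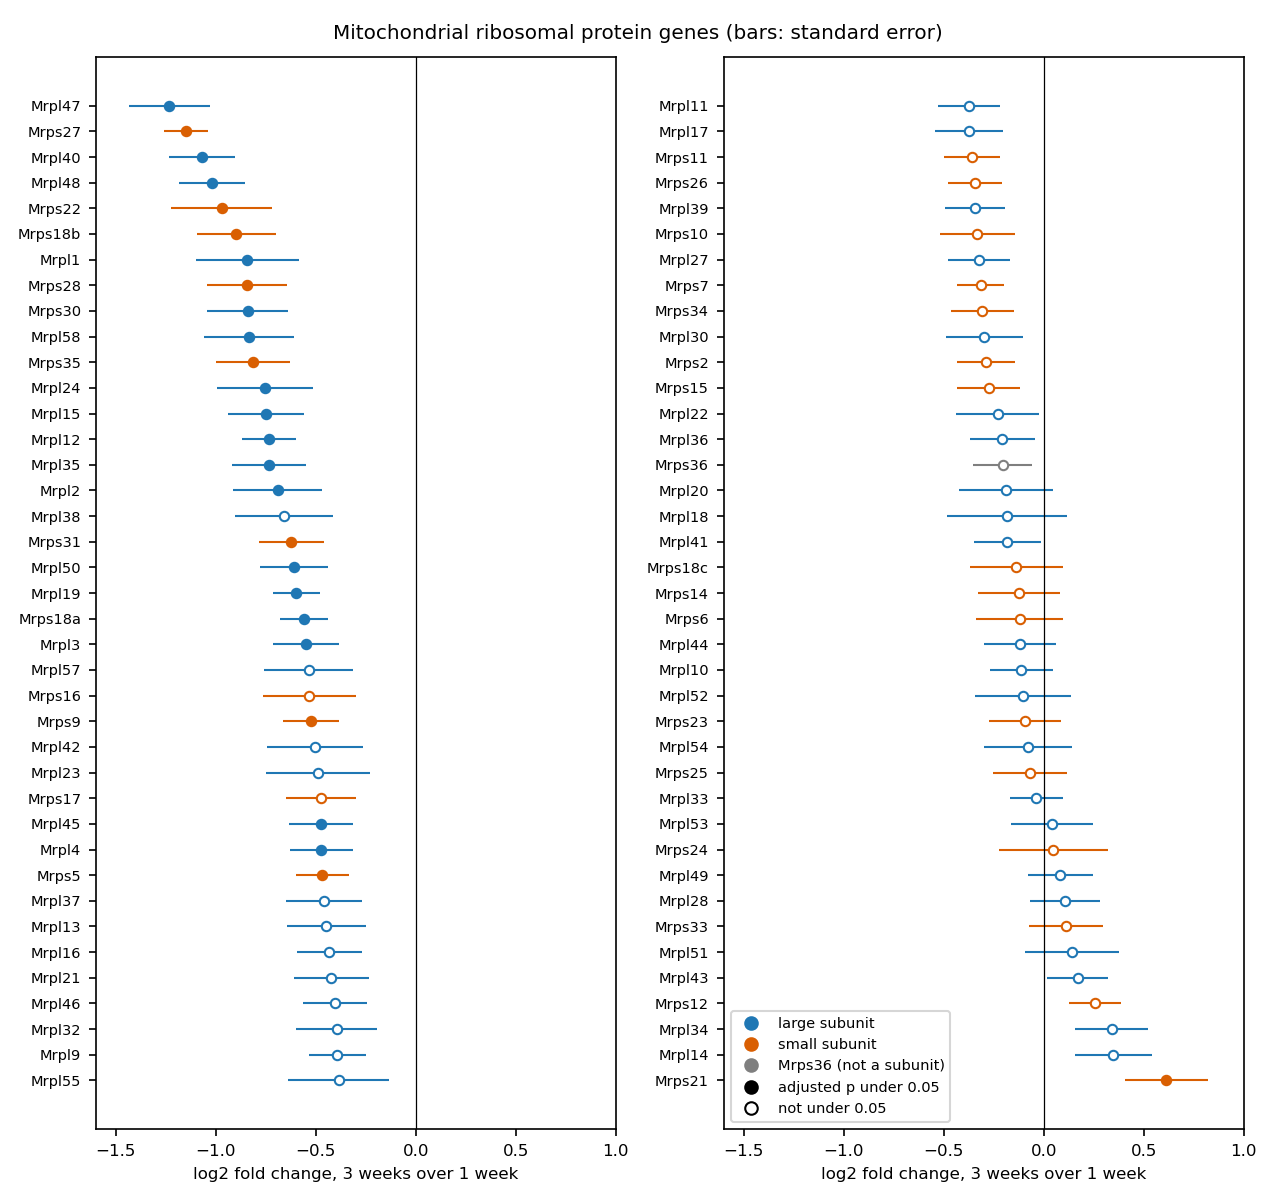
Log2 fold change (3 weeks over 1 week) with its standard error for the 78 genes, ordered from the lowest in the left panel to the highest in the right one. Filled points passed the test, and 67 of the 78 points lie left of 0, with Mrps21 as the single filled point to the right.

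Per sample, the family's RPKM summed to 1678, 1589, 1546 and 1587 in replicates 1 to 4 at 1 week and to 1121, 1289, 1467 and 1017 at 3 weeks. The groups did not overlap, and the mean fell from 1600 ± 55.7 to 1223.5 ± 197 (SD, n = 4), or to 76.5% of 1 week. The large subunit was at 74.4% and the small subunit at 81.3% of 1 week in summed RPKM. On the TPM scale, which sets each sample to one common total, the sum went from 4529, 4528, 4525 and 4679 at 1 week to 3328, 3526, 3074 and 3078 at 3 weeks, or 71.2%. RNA per cell was not measured, so these are shares of the poly(A) RNA of a culture, and a lower share per cell cannot be told apart from fewer cells with a high share.

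One library stood apart. In 3 weeks replicate 3, reads of mitochondrial DNA made up 13.3% of the exon reads, against 3.73% to 4.43% in the other 3-week samples and 2.19% to 3.66% at 1 week. This sample had the highest 3-week RPKM for 66 of the 78 genes, and replicate 4 the lowest for 53. Measured against the mean of the 1-week samples on normalized CPM (reads scaled to library size with the factors of the edgeR fit), the median gene of the family was displaced by -0.56, -0.36, -0.04 and -0.67 on the log2 scale in replicates 1 to 4 at 3 weeks, and by 0.12, -0.0065, -0.11 and -0.0028 at 1 week. On RPKM, 71, 61, 49 and 74 of the 78 genes lay below every 1-week sample in 3-week replicates 1 to 4, or 91.0%, 78.2%, 62.8% and 94.9%, beside 43.2%, 42.1%, 53.6% and 43.2% of all tested genes. In TPM, in contrast, replicate 3 had the lowest sum of the 3-week samples (3074, beside 3078 in replicate 4). Its part in the results was not tested beyond leaving it out.

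A number in the names of the deposited tables, read here as the KC preparation, was shared across the times by 3 pairs of samples: 46 (replicate 1 both times), 49 (1 week replicate 3 and 3 weeks replicate 2) and 90 (replicate 4 both times). The sample that stood apart (57) and 1 week replicate 2 (47) have no partner. Within preparations, 72 of 78 genes were lower at 3 weeks in preparation 46 (median log2 ratio of normalized CPM -0.68), 65 in preparation 49 (-0.25) and 75 in preparation 90 (-0.66), beside medians of all genes of -0.0043, -0.0030 and -0.0027. In all 3 preparations 61 genes were lower and Mrps21 was higher. The share of all tested genes that were lower in all 3 is not given here. With the preparation as a block, in the 6 samples of these preparations alone, 29 genes were lower (14.2% of all genes), 23 of which were among the 25. The same 6 samples without a block, a fit chosen after the data were seen, gave 43 lower genes (17.5% of all genes).

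**Figure D2:**
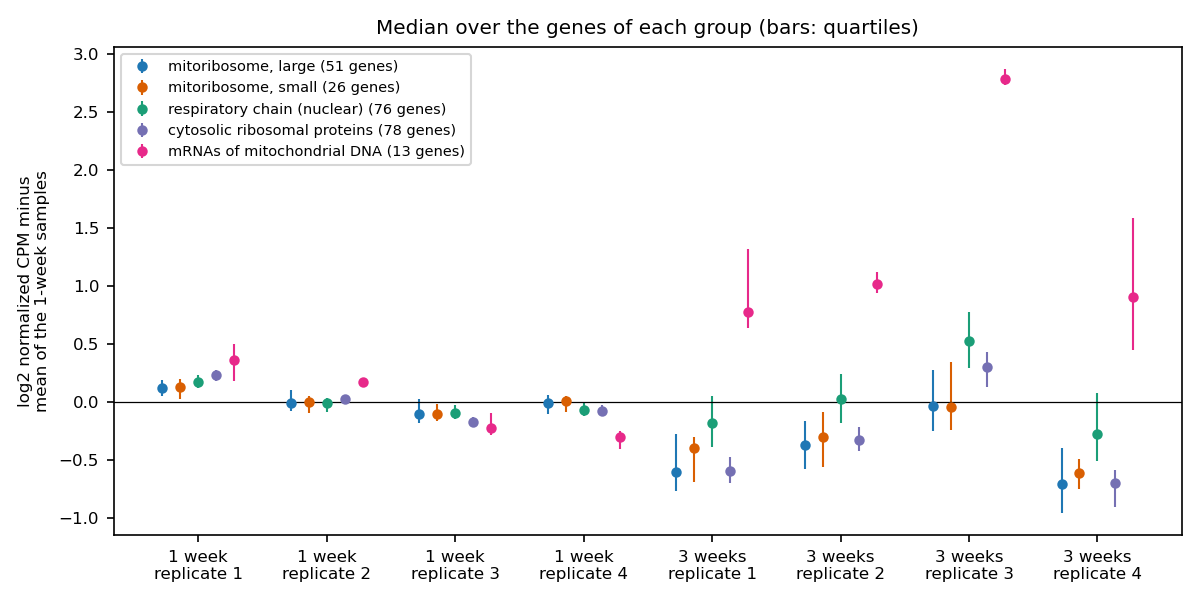
Displacement of each sample from the mean of the 1-week samples, in log2 normalized CPM, as the median (points) and quartiles (bars) over the genes of 5 groups. Both mitoribosomal subunits and the cytosolic ribosomal proteins sit below 0 in 3-week replicates 1, 2 and 4, and replicate 3 stands higher for all 5 groups.

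In the large subunit, 17 of 51 genes were lower (33.3%, against 17.0% of all tested genes) and none was called higher at 3 weeks by edgeR (median log2 fold change -0.40). None was higher at an unadjusted p under 0.05, with DESeq2 or with limma either (0 in each). Among its genes with a bacterial counterpart, 10 of 30 were lower (33.3%, median -0.39). Among those counted as specific to mitochondria, Mrps18a included, it was 7 of 21 (33.3%, median -0.46). Mrpl47 (chr3:32725397-32737605 on GRCm38), whose product corresponds to the bacterial protein L29 near the exit tunnel, showed the lowest log2 fold change of the family. Its RPKM was 5.31, 5.67, 4.05 and 4.95 at 1 week and 2.02, 2.07, 2.11 and 1.36 at 3 weeks. The groups did not overlap, and the log2 fold change was -1.23 ± 0.20 (SE), or 2.35-fold lower (edgeR adjusted p = 0.00218).

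Mrpl12 encodes the L12 protein of the stalk, which receives translation factors, and was the most abundant gene of the large subunit at 1 week. RPKM of Mrpl12 (chr11:120484613-120489065) was 62.1, 59.2, 59.8 and 62.1 at 1 week and 35.2, 36.5, 32.2 and 26.3 at 3 weeks. The groups were far apart, with a log2 fold change of -0.74 ± 0.14 (SE, edgeR adjusted p = 0.0037), and in rank by mean RPKM it went from the second place of the 78 genes to the ninth. Mrpl2, the counterpart of L2 at the peptidyl transferase centre, was at 63.6, 60.6, 40.9 and 51.2 RPKM at 1 week and at 27.6, 34.0, 35.5 and 21.5 at 3 weeks (log2 fold change -0.69, edgeR adjusted p = 0.0406). Its groups overlapped on normalized CPM. For Mrpl2, 37.8% of the reads were unique, meaning that they matched a single place in the genome, and the log2 fold change was -0.72 with those reads alone.

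Mrpl48 and Mrpl40 are proteins of the central protuberance that bacteria do not have. RPKM of Mrpl48 (chr7:100545751-100608301), the gene with the lowest level of the family, was 2.94, 2.65, 3.11 and 3.25 at 1 week and 1.13, 1.52, 1.42 and 1.17 at 3 weeks (log2 fold change -1.02 ± 0.16 SE, edgeR adjusted p = 0.0021). Rab6a lies on the opposite strand of Mrpl48, at 59.4 RPKM at 1 week and 50.7 at 3 weeks, and did not pass the test (adjusted p = 0.725). RPKM of Mrpl40 was 15.9, 15.7, 16.9 and 17.4 at 1 week and 7.59, 7.12, 7.71 and 5.41 at 3 weeks (log2 fold change -1.07). Neither gene had overlapping groups. Of the reads of Mrpl40, 24.9% were unique, and it overlaps Gm28539 on the opposite strand, which also fell by 0.92 on the log2 scale (edgeR adjusted p = 0.0226).

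Mrpl1, counterpart of the L1 stalk protein, had 7.22, 7.05, 4.04 and 5.31 RPKM at 1 week and 2.69, 3.19, 3.64 and 2.12 at 3 weeks (log2 fold change -0.84, edgeR adjusted p = 0.0335). The lowest 1-week and highest 3-week values of Mrpl1 were close, and its normalized CPM overlapped. Mrps30 had 9.67, 9.17, 6.80 and 6.22 RPKM at 1 week and 3.56, 3.83, 4.73 and 3.64 at 3 weeks (log2 fold change -0.84, edgeR adjusted p = 0.0124). Mrpl58, a peptidyl-tRNA hydrolase built into the large subunit that releases stalled ribosomes, had 10.1, 9.70, 8.70 and 9.95 RPKM at 1 week and 4.44, 5.39, 6.05 and 3.17 at 3 weeks (log2 fold change -0.83, edgeR adjusted p = 0.0198). Neither Mrps30 nor Mrpl58 overlapped between the times.

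The called large-subunit genes with the smallest falls still had separate groups on RPKM, whereas on normalized CPM the groups of Mrpl4 overlapped. Mrpl19 went from 7.43 ± 0.35 to 4.38 ± 0.17 RPKM (SD, n = 4; log2 fold change -0.60), and Mrpl3, counterpart of L3, from 11.1 ± 1.15 to 6.70 ± 0.91 (log2 fold change -0.55). The log2 fold change was -0.47 for Mrpl45, a membrane-side protein at the tunnel exit (edgeR adjusted p = 0.047), and -0.47 for Mrpl4, counterpart of L4 in the tunnel wall (edgeR adjusted p = 0.0458).

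Some abundant large-subunit genes did not pass the test in any direction. RPKM of Mrpl28 was 52.7, 51.6, 50.9 and 54.2 at 1 week and 46.2, 53.0, 61.0 and 39.0 at 3 weeks (log2 fold change 0.11, edgeR adjusted p = 0.68), with 3-week samples on both sides of the 1-week samples. The sign for Mrpl28 turned in 5 of the 20 alternatives. RPKM of Mrpl14 was 46.9, 41.7, 42.8 and 45.4 at 1 week and 38.7, 52.4, 63.6 and 44.4 at 3 weeks (log2 fold change 0.35, edgeR adjusted p = 0.196). Tmem63b, on the opposite strand of Mrpl14, rose by 0.54 on the log2 scale (edgeR adjusted p = 0.045). Of the reads of Mrpl33, 12.2% were unique, and of those of Mrpl53 none (0%). Their log2 fold changes of -0.04 and 0.04 changed sign with the processing.

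In the small subunit, 8 of 26 genes were lower and 1 was higher (median log2 fold change -0.32). Of its genes specific to mitochondria, 5 of 10 were lower (50%, median -0.48). Of those with a bacterial counterpart, 3 of 16 were lower (18.8%, near the 17.0% of all tested genes, median -0.30). Over both subunits, this was 12 of 31 genes specific to mitochondria (38.7%) and 13 of 46 with a bacterial counterpart (28.3%). Mrps18a and Mrps18b, both lower, were counted as specific to mitochondria although they are relatives of the bacterial S18, so the split depends on this choice. The difference was not tested.

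Mrps27, a pentatricopeptide repeat protein of the mitochondrial small subunit, had the lowest adjusted p-value of the family. RPKM of Mrps27 (chr13:99344786-99415562) was 19.9, 19.9, 18.8 and 21.5 at 1 week and 8.0, 8.28, 7.27 and 8.81 at 3 weeks. The spread within each time was small and, on RPKM, 3 weeks replicate 3 was the lowest, not the highest, of its group. On normalized CPM the 3-week values were 17.9, 18.3, 18.5 and 19.3 in replicates 1 to 4, with replicate 1 the lowest. The log2 fold change was -1.15 ± 0.11 (SE, edgeR adjusted p = 0.000317).

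Mrps22, specific to mitochondria, had 8.0, 7.14, 6.27 and 6.51 RPKM at 1 week and 2.88, 3.49, 4.21 and 1.98 at 3 weeks (log2 fold change -0.97, edgeR adjusted p = 0.0176). Mrps28, in contrast, was at higher levels of 29.5, 28.1, 23.8 and 24.3 RPKM at 1 week and 13.7, 14.2, 15.0 and 9.30 at 3 weeks (log2 fold change -0.84, edgeR adjusted p = 0.0113). The times were separate for both genes. Mrps35 and Mrps31 were among the 4 genes with the lowest levels, at 3.25 ± 0.33 and 4.83 ± 0.63 RPKM at 1 week and 1.64 ± 0.29 and 2.79 ± 0.21 at 3 weeks (SD, n = 4), and both were lower (log2 fold changes -0.81 and -0.62). In the small subunit, the smallest falls called were those of Mrps9 (-0.52) and Mrps5 (-0.47), counterparts of the bacterial proteins S9 and S5.

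3 genes encode relatives of the bacterial protein S18, which occupy different places in the mitoribosome. Mrps18b, in the small subunit, had 32.8, 31.3, 28.7 and 30.9 RPKM at 1 week and 14.3, 17.6, 16.8 and 10.1 at 3 weeks (log2 fold change -0.90 ± 0.20 SE, edgeR adjusted p = 0.00803). Mrps18a, in the large subunit, had 10.2, 10.2, 9.27 and 9.74 RPKM at 1 week and 5.71, 6.27, 6.14 and 5.74 at 3 weeks (log2 fold change -0.56 ± 0.12 SE, edgeR adjusted p = 0.00773). Mrps18c, in the small subunit and at the place of S18, had 26.7, 26.8, 24.1 and 24.6 RPKM at 1 week and 17.8, 19.5, 29.0 and 15.4 at 3 weeks (log2 fold change -0.14 ± 0.23 SE, edgeR adjusted p = 0.688). The groups of Mrps18a and Mrps18b were apart, whereas those of Mrps18c overlapped through 3 weeks replicate 3. Differences between the 3 genes in their change were not tested.

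Mrps21 (chr3:95862634-95871519), counterpart of S21, had the highest level of the family at both times and was the only gene called higher. Its RPKM was 63.5, 51.2, 86.5 and 76.8 at 1 week and 81.1, 99.0, 112.5 and 83.8 at 3 weeks, and the 1-week value of replicate 3 lay above 2 of the 3-week values. The log2 fold change of Mrps21 was 0.61 ± 0.21 (SE) with an edgeR adjusted p of 0.0482, and over the 20 other settings the adjusted p ranged from 0.0202 to 0.2. It passed the threshold in 4 of them.

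**Figure D3:**
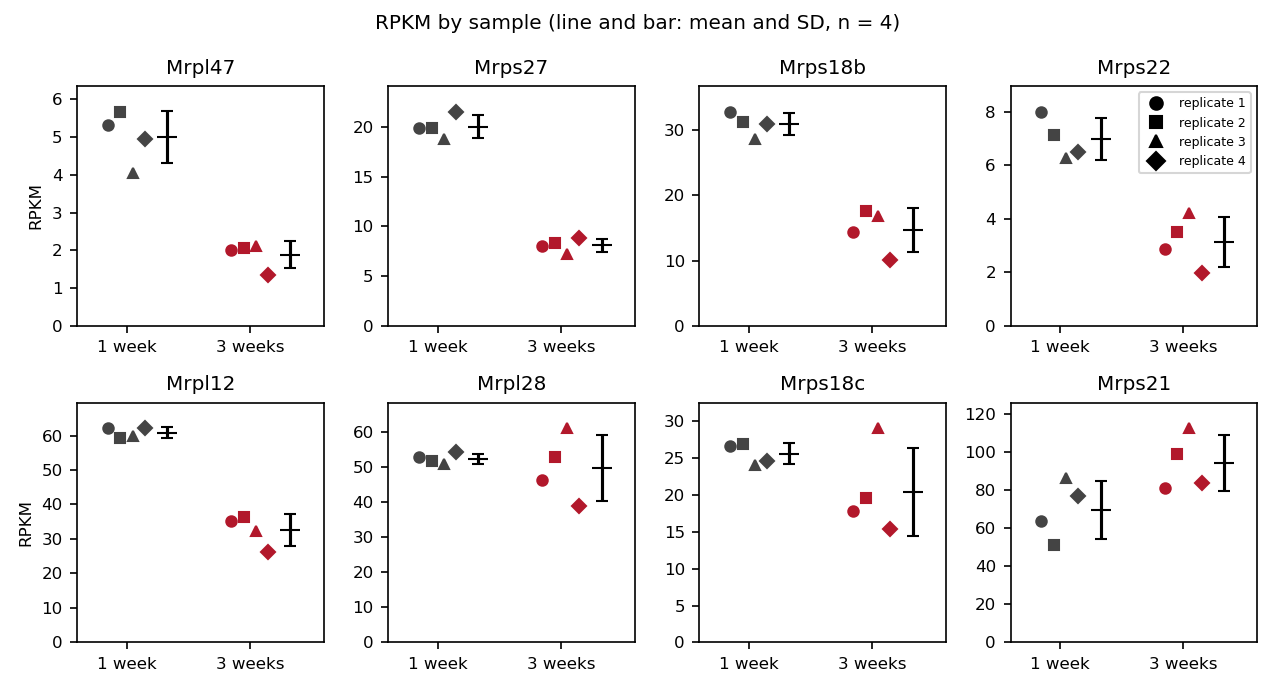
RPKM of 8 genes in each of the 8 samples (symbols mark the replicate number, and the line with its bar the mean and SD of 4 samples), on axes that start at 0. The groups are apart for Mrpl47, Mrps27, Mrps18b, Mrps22 and Mrpl12 and overlap for Mrpl28, Mrps18c and Mrps21.

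For Mrps34, 10.9% of the reads were unique, and the gene overlaps Nme3 and Mapk8ip3. Its RPKM was 20.7 ± 3.42 at 1 week and 14.9 ± 0.96 at 3 weeks (SD, n = 4; log2 fold change -0.31, edgeR adjusted p = 0.169). For Mrps6, which overlaps Slc5a3 on the same strand, the share was 6.67%, with 17.8 ± 2.36 RPKM at 1 week and 14.4 ± 3.37 at 3 weeks (log2 fold change -0.12, edgeR adjusted p = 0.71). Both genes, like Mrpl33, Mrpl53, Mrpl2 and Mrpl40, are uncertain for this reason. Without these 6 genes, 23 of 72 were lower and 1 was higher, with a median of -0.39.

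Overlap with other genes was common, and use of the strand in counting was not stated. Another gene overlapped 38 of the 78, in 32 of them on the opposite strand. The 40 genes that overlap no other gene had 9 lower (22.5%, nearer to the 17.0% of all tested genes than the 32.1% of the whole family), 1 higher and a median of -0.37. Mrpl47 overlaps Actl6a (log2 fold change -0.50, edgeR adjusted p = 0.083) and Ndufb5 (-0.32, adjusted p = 0.265), neither of which passed the test. Mrpl13, itself not called (-0.45), overlaps Mtbp, which fell by 1.79 on the log2 scale (edgeR adjusted p = 0.000193).

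Mrpl46 and Mrps11 form a divergent pair, with 41 bases between their RefSeq starts. Mrpl46 went from 16.9 ± 1.67 to 11.4 ± 1.31 RPKM and Mrps11 from 7.16 ± 0.46 to 4.97 ± 0.53 (SD, n = 4). Both groups were separate on RPKM. The log2 fold changes of -0.40 and -0.36 did not pass the test (edgeR adjusted p = 0.0827 and 0.0779).

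Levels within the family spread widely. Mean RPKM ran from 2.99 (Mrpl48) to 69.5 (Mrps21) at 1 week, a 23.3-fold range, and from 1.31 to 94.1 for the same genes at 3 weeks, a 71.9-fold range. The median exon length was 3690 bases in the 25 lower genes and 1715 in the 52 not called, and median RPKM at 1 week was 9.86 and 20.3. Across the 78 genes, the log2 fold change had a Spearman rho of 0.47 with the mean RPKM at 1 week and of -0.50 with exon length, against -0.16 and 0.08 across all tested genes. These are descriptions across genes that share libraries and a length term, and genes are not independent replicates. The genes lie on 17 chromosomes, with at most 11 on one (chromosome 11).

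**Figure D4:**
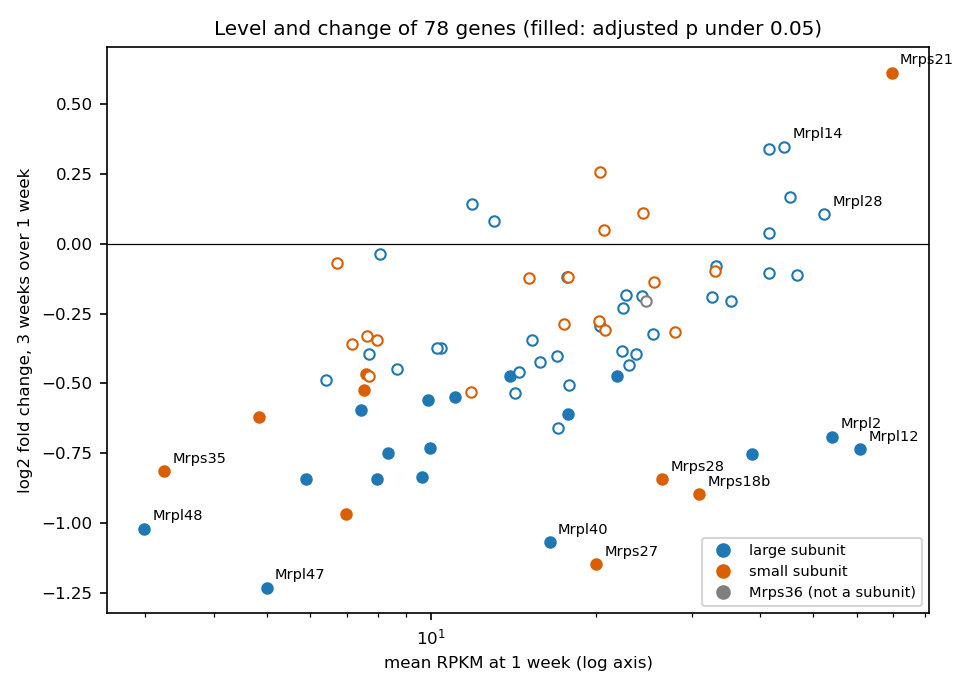
Log2 fold change (3 weeks over 1 week) against mean RPKM at 1 week on a log axis for 78 genes, coloured by subunit and filled where the test was passed. Lower levels go with lower fold changes except for a set of abundant genes such as Mrpl12, Mrpl2 and Mrps18b, which were also lower.

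On the scale of deposited RPKM, which has no correction for library composition, the family looked lower still. The limma test on log2(RPKM + 0.1) called 53 of 78 genes lower and none higher, against 24.5% of all genes lower. At that scale the median of all genes was itself shifted to -0.16, and that of the family was -0.55. RPKM of the groups did not overlap in 49 genes, all lower at 3 weeks (26.2% of all tested genes were non-overlapping and lower, 10.8% higher). Normalized CPM did not overlap in 25 genes that were lower and 1 that was higher (background 18.5% and 16.4%).

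5 proteins of the mitoribosome have symbols that do not start with Mrp. Dap3, a GTP-binding protein of the small subunit, was at 13.4 ± 1.39 RPKM at 1 week and 7.31 ± 0.80 at 3 weeks (SD, n = 4; log2 fold change -0.70, edgeR adjusted p = 0.00765). Gadd45gip1, of the large subunit near the tunnel exit, was lower with -0.62 (edgeR adjusted p = 0.0252) and Ptcd3, a pentatricopeptide repeat protein of the small subunit, with -0.52 (adjusted p = 0.0167). Chchd1 (-0.53, adjusted p = 0.173) and Aurkaip1 (-0.10, adjusted p = 0.731) did not pass the test.

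Genes that build and serve the mitoribosome were compared in the same fit. Of 26 assembly factors, 11 were lower (42.3%, against 17.0% of all tested genes) and 1 was higher (median log2 fold change -0.53). Fastkd2, which binds the large rRNA of mitochondria, was at 5.85 ± 0.36 RPKM at 1 week and 2.35 ± 0.62 at 3 weeks (SD, n = 4; log2 fold change -1.14). The rRNA methyltransferase gene Mrm3 (-1.12) and Rcc1l (-0.99) were lower as well. Mpv17l2 was the gene called higher, from 32.5 ± 2.10 to 43.1 ± 8.13 RPKM (log2 fold change 0.58, edgeR adjusted p = 0.0343), with groups that overlapped on RPKM. With the preparation block, which uses the 6 samples of the 3 shared preparations, 6 assembly factors were lower and none was higher (23.1%, against 14.2% of all genes lower). The call of Mpv17l2 was lost there (edgeR adjusted p = 0.169) and without 3 weeks replicate 3 (0.0507).

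Of 19 genes for translation factors and for release and processing of the new chains, 10 were lower and none higher by edgeR (median log2 fold change -0.46). This was 52.6% lower, against 17.0% of all tested genes, with 0 higher at an unadjusted p under 0.05, by DESeq2 or by limma. Guf1, a GTPase related to the bacterial factor LepA, had 1.32 ± 0.13 RPKM at 1 week and 0.59 ± 0.05 at 3 weeks (SD, n = 4; log2 fold change -0.99). Mtrf1, a release factor, was also lower (-0.72, edgeR adjusted p = 0.0416). Pdf, the peptide deformylase, had the lowest value (-1.72), with 9.97% unique reads. With the preparation block, 3 of the 19 genes were lower (15.8%, against 14.2% of all genes) and the median was -0.52.

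Of 17 mitochondrial aminoacyl-tRNA synthetase genes, which charge the tRNAs used by the mitoribosome, 10 (58.8%) were lower and none higher by edgeR, DESeq2 and limma. Of all tested genes, 17.0%, 19.5% and 24.5% were lower in these tests. None of the 17 genes was higher at an unadjusted p under 0.05 (0 higher). All 17 log2 fold changes were negative (median -0.65). With the preparation block, 7 were lower (41.2%, against 14.2% of all genes). Tars2, for threonine, went from 9.47 ± 1.78 to 4.10 ± 0.25 RPKM (SD, n = 4; log2 fold change -1.04, edgeR adjusted p = 0.00207). Vars2, for valine, was lower as well (-1.0).

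Of 20 genes for upkeep and transcription of mitochondrial DNA and for processing of its RNA, 8 were lower and none higher by edgeR (median log2 fold change -0.47). This was 40% lower, against 17.0% of all tested genes, with 0 higher at an unadjusted p under 0.05, by DESeq2 or by limma. With the preparation block, 7 were lower (35%, against 14.2% of all genes). Mgme1, an exonuclease of mitochondrial DNA, went from 3.14 ± 0.46 to 1.03 ± 0.05 RPKM (SD, n = 4; log2 fold change -1.44, edgeR adjusted p = 0.000645). The RNA-degrading pair Pnpt1 and Supv3l1 fell by 0.95 and 0.91 on the log2 scale.

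Of 11 genes for nuclear regulators, 10 were tested and 4 were lower (40%, against 17.0% of all tested genes, median log2 fold change -0.48), while Ppargc1a had too few reads. Myc was at 55.2, 62.0, 46.4 and 53.7 RPKM at 1 week and 24.4, 22.2, 12.1 and 36.4 at 3 weeks (log2 fold change -1.05, edgeR adjusted p = 0.0129). Pprc1, a coactivator of NRF1, fell by 1.0 on the log2 scale. Ppargc1b fell by 3.48 on the log2 scale from a very low level (0.34 ± 0.09 to 0.03 ± 0.02 RPKM). The remaining lower gene was Nrf1 itself (-0.57, edgeR adjusted p = 0.00805), named after its value was seen. Gabpa (0.13) and Esrra (0.24) did not pass the edgeR test. Yy1 (0.31) did not pass it either (adjusted p = 0.057), nor did it with the preparation block (edgeR adjusted p = 0.155). Yy1 passed with DESeq2 (adjusted p = 0.0213) and with edgeR without 3 weeks replicate 3 (0.0288). Over the 20 alternatives its adjusted p ranged from 0.0213 to 0.435.

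**Figure D5:**
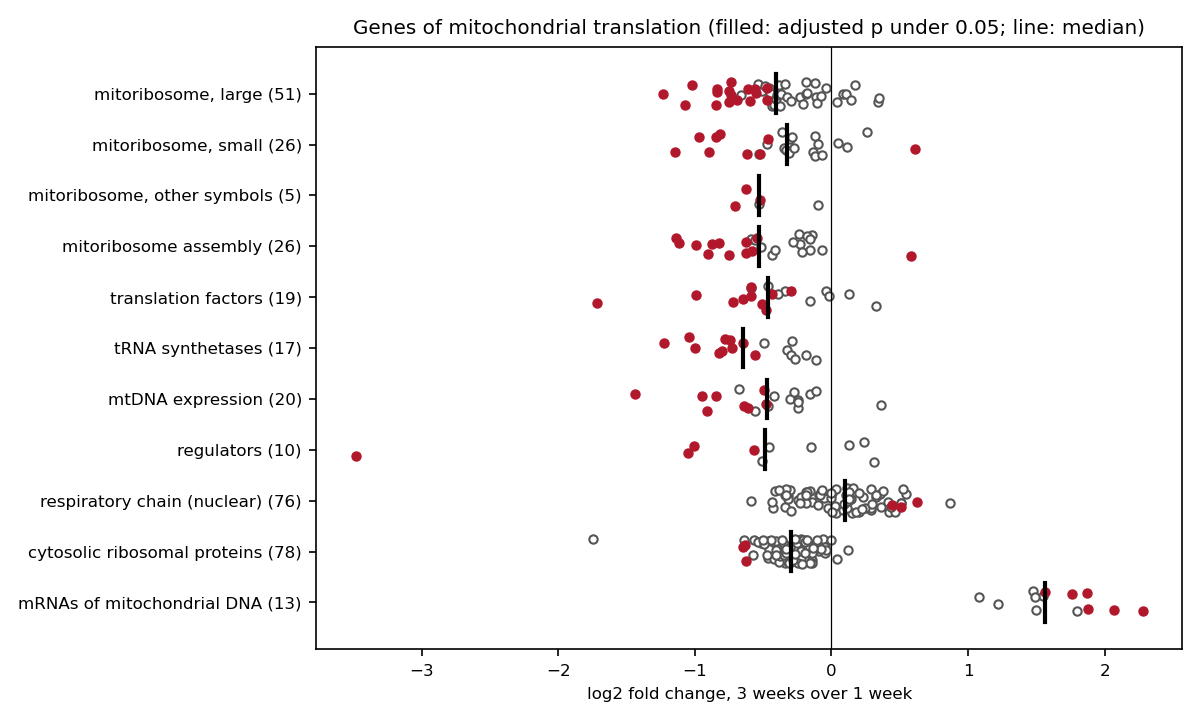
Log2 fold change (3 weeks over 1 week) of single genes in 11 groups, with tested genes in parentheses, filled points for genes past the threshold and a line at the median. The medians of the groups for mitochondrial translation lie between -0.65 and -0.32, that of nuclear respiratory chain genes at 0.10 and that of mitochondrial DNA mRNAs at 1.56.

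3 groups served as a comparison, and differences between groups were not tested. Of 78 cytosolic ribosomal protein genes, 3 were lower (Rps6 and Rpl3 among them) and none higher by edgeR. This was 3.85% lower, against 17.0% of all tested genes, with a median log2 fold change of -0.30. None was higher at an unadjusted p under 0.05, by DESeq2 or by limma (0 in each). Without 3 weeks replicate 3, 64 of them were lower (82.1%, against 20.8% of all genes), with a median of -0.55. In the mitochondrial family it was 53 of 78 (67.9%) and -0.53. With the preparation block, 7 were lower (8.97%, against 14.2% of all genes), with a median of -0.55. Of 85 nuclear genes for the respiratory chain, 76 were tested, 3 were higher (Cox6a1, Cox6b1 and Ndufv3) and none lower by edgeR (median 0.10). This was 3.95% higher, against 15.7% of all tested genes. At an unadjusted p under 0.05, 4 were lower, and DESeq2 called 2 and limma 14 lower. Of all tested genes, 19.5% and 24.5% were lower with DESeq2 and limma. Without 3 weeks replicate 3, 16 of 77 were lower and 2 higher, with a median of -0.11. That was 20.8% lower, the same as the 20.8% of all genes. With the preparation block, 5 of 77 were lower (6.49%, against 14.2% of all genes) and none higher, and the median was -0.17. The higher calls were thus lost and the median turned. These genes were named after their values were seen.

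For the 13 mRNAs that mitoribosomes translate, all 13 log2 fold changes were positive (median 1.56). Of these mRNAs, 6 passed the test, all higher at 3 weeks (mt-Nd2, mt-Nd4, mt-Nd4l, mt-Nd5, mt-Nd6 and mt-Cytb). This was 46.2% higher, against 15.7% of all tested genes. Summed RPKM was 41966, 35904, 26204 and 23668 at 1 week and 43912, 53245, 160950 and 47003 at 3 weeks. The times did not overlap, and replicate 3 was far above the other samples. Without replicate 3, 7 of 13 passed, all higher, with a median of 0.76, beside 2194 higher genes among all 12799 tested.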

How the data were processed

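Single reads of poly(A) libraries were aligned by the authors in CLC Genomics Workbench (version 12, default settings) against GRCm38; annotation release and use of strand are not given in the sources used here. The deposited counts are whole reads per gene, and the authors also deposited RPKM and TPM, written with decimal commas. Exon reads per sample were 13896807 to 20026084, of which 81.6% to 84.7% were unique.

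Differences in total exon reads were tested by edgeR 4.0.16 (R 4.3.3; filterByExpr, TMM, glmQLFit, glmQLFTest) on all 8 samples, unpaired, with Benjamini-Hochberg adjustment over 12590 genes; standard errors came from the F statistics. Of these genes 2146 were lower and 1981 higher. Normalized CPM use the TMM factors (0.853 in 3 weeks replicate 3, 0.965 to 1.07 otherwise). Alternatives used DESeq2 1.42.0, limma 3.58.1 and the settings named in the closing section. The test was tried on simulated counts. Figures were drawn with matplotlib 3.10.9.

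The family, the gene lists and the comparison groups were chosen with earlier results of these data known. Genes were named by rule: the 10 lowest and 8 highest called values, the 4 highest and 4 lowest levels, the S18 relatives, genes with under 50% unique reads, the mitoribosomal genes with other symbols, and up to 3 lowest and 3 highest called genes per pathway list; a few genes that this rule would name are not reported here. The written pattern for cytosolic ribosomal proteins would have dropped the Rpl genes and was corrected to leave out only pseudogenes and ribosomal-protein-like genes. Replicates differed by more than counting noise (chi-square per degree of freedom at least 15.6).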

Additional observations from a re-analysis of the deposited data

Results flagged for a closer look

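In groups of 4 samples, a sample was singled out where its gap to the nearest other sample, divided by the range of the group, was over Dixon's 95% critical value. Of 110 groups tested, 4 had such a sample, and chance alone singles out about 1 in 20 groups. The share of mitochondrial DNA reads was 13.3% in 3 weeks replicate 3, against 3.73% to 4.43% in the other 3-week samples. Mrpl47 was at 1.36 RPKM in 3 weeks replicate 4, against 2.02 to 2.11 in the others. Mrps6 was at 14.3 RPKM in 1 week replicate 3, against 18.6 to 19.2. Pnpt1, a subunit of the RNA-degrading complex, was at 4.06 RPKM in 3 weeks replicate 1, against 4.5 to 4.59.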

How the results depend on the processing

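Over 20 alternatives, the median log2 fold change of the family stayed negative (-0.57 to -0.29), and 12 genes were lower in the reported test and in every alternative: Mrpl12, Mrpl15, Mrpl19, Mrpl35, Mrpl40, Mrpl47, Mrpl48, Mrps18b, Mrps27, Mrps28, Mrps30 and Mrps35. The number of lower genes (25) (17.0% of all genes) was 53 with limma on log2(RPKM + 0.1) or log2(RPKM + 1) (24.5% of all genes with each), 43 in the same 3 preparations without a block (17.5% of all genes; chosen after the data were seen, as was leaving out mitochondrial DNA genes, which gave 25), 32 with DESeq2 (19.5%), 31 with unique reads (18.7%), and 14 to 53 when single samples were left out (12.7% to 20.8%). With the replicate block it was 14 (17.9% of the family, 12.4% of all genes), Mrpl1, Mrpl2, Mrpl24, Mrpl3, Mrpl4, Mrpl45, Mrpl50, Mrps18a, Mrps31, Mrps5 and Mrps9 being lost. On the reading of preparations used here, numbers 1 and 4 hold the same preparation at both times and 2 and 3 do not. The replicate numbers were therefore not taken as pairs. Same-number deviations had correlations of -0.23 (replicate 1, preparation 46) to 0.25 (replicate 4, preparation 90). Preparation 49 (1 week replicate 3 and 3 weeks replicate 2) had 0.20, and 1 of 4 samples correlated best with its own number. With the replicate block, 7 assembly factors, 4 translation factors and 5 genes of mitochondrial DNA upkeep were lower, against 11, 10 and 8. Mpv17l2 and the 3 cytosolic ribosomal protein genes were lost there, and 1 nuclear respiratory chain gene was higher, against 3. The number of higher genes (1) was 0 with at least 10 reads in every sample, no filter, limma, total gene reads, unique reads, upper-quartile normalization, the replicate block and both fits on 3 preparations, and 0 to 2 when single samples were left out (Mrps21 and Mrpl34 without 3 weeks replicate 4). Over all genes, 1981 were higher, against 1313 and 1281 with limma (pseudocounts 0.1 and 1), 1316 with the preparation block and 1309 with the replicate block. The causes were not tested.

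Values near 0 changed sign. Mrpl28 (0.11) was -0.091 and -0.089 with limma at pseudocounts 0.1 and 1, -0.12 with the preparation block, -0.11 in the same preparations without a block and -0.092 to 0.23 with single samples left out. Mrpl53 (0.04) was -0.15 with limma at both pseudocounts, -0.029 without a filter, -0.17 with the preparation block, -0.18 in the same preparations without it, and -0.20 to 0.14 with single samples left out. With single samples left out, Mrpl33 (-0.04) ranged from -0.16 to 0.016 and Aurkaip1 (-0.10) from -0.33 to 0.0033. With 4 samples a group, the median standard error of a log2 fold change in the family was 0.18. Changes of about that size, and larger ones as well, could not be told from 0. The smallest fall called was -0.47 (Mrps5), and -0.66 (Mrpl38) was not called.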
